A study of Mus musculus with 8 samples.

Results

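A set of genes that encode secreted antagonists or modulators of bone morphogenetic proteins (BMPs) was followed through the whole-ovary transcriptomes of juvenile mice, and it made up 6 of the 45583 gene symbols counted. They were Grem1, Nog, Bmper, Nbl1, Twsg1 and Chrdl1, taken by symbol from the table of read counts per gene. They were chosen from measured values, because the difference in Grem1 between the groups was already known from these libraries when the set was drawn up. The contrast between the groups is therefore a description for them. No p is given for the level of any of the 6. A call states only on which side of the thresholds a gene fell, beside the share of all genes called. All 6 passed the filter on low counts, as did 16601 symbols in all.

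The ovaries came from female mice aged 3 weeks on a C57/Bl6 background. One group, WT, carried the intact gene for ghrelin-O-acyltransferase (GOAT), the enzyme that attaches the fatty acid to ghrelin and that is encoded by Mboat4. The other group, GOAT KO, carried a deletion of this gene in all cells, and both genotypes were littermates bred from heterozygous parents without any treatment. Each group held 4 animals with 1 library from 1 ovary each, numbered 1118 to 1121 for WT and 1139, 1140, 1141 and 1146 for GOAT KO, and the counts summed to between 16147216 and 19481798 per library. Mboat4 itself went against the labels, with 1, 1, 1 and 3 counts in the libraries labelled WT and 5, 7, 7 and 8 in those labelled GOAT KO. Whether these reads lie in the deleted part cannot be told from counts per gene, so every direction below rests on the labels alone.

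BMPs are secreted growth factors that bind pairs of type I and type II receptors on the cell surface, which phosphorylate Smad1, Smad5 and Smad9. Antagonists bind the ligand outside the cell and keep it from its receptors, and in the ovary the balance between oocyte ligands, granulosa cell ligands and their antagonists is known to set the pace of early follicle growth and granulosa cell maturation. Gremlin 1 and the product of Nbl1 belong to the DAN family of cystine-knot antagonists, and noggin encloses its ligand as a dimer. The products of Chrdl1 and Bmper carry the von Willebrand factor type C domains of chordin, while the product of Twsg1 binds both BMP and chordin.

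Read against the markers of ovarian cells, the libraries were ovarian. All 8 granulosa cell markers and all 10 oocyte markers had reads in all 8 libraries, with summed levels of 4974 to 6112 CPM (counts scaled to library size) and 1227 to 1506 CPM. On multidimensional scaling, the first dimension placed GOAT KO 1139 at 1.21 and the other 7 libraries between -0.47 and 0.17. The second placed WT 1118 at 0.76 and the other 7 libraries between -0.46 and 0.32. WT 1120 lay at 0.17 and -0.43, so the scaling alone did not set it apart. Its summed adipose tissue markers reached 614 CPM, against 15.1 to 36.3 CPM in the other 7 libraries. The study left out 1 library of each group, which its text does not name, and values without WT 1120 and GOAT KO 1139 are given below as those of 6 libraries.

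Levels can be compared between these genes only per length, as RPKM (CPM divided by the length of the exons in kilobases). Twsg1 stood highest with 57.8 ± 3.04 RPKM (SD, n = 8 libraries), followed by Nbl1 with 34.4 ± 3.42 RPKM (SD, n = 8). Bmper at 6.73 ± 1.41 RPKM (SD, n = 8) and Chrdl1 at 6.51 ± 1.13 RPKM (SD, n = 8) lay well below them. Grem1 at 2.05 ± 1.51 RPKM (SD, n = 8) and Nog at 1.29 ± 0.392 RPKM (SD, n = 8) were the lowest. Twsg1 was above Nbl1, and Nbl1 above Bmper, in all 8 libraries without overlap of their ranges. Bmper exceeded Chrdl1 in 5 of 8 libraries and Grem1 exceeded Nog in 5 of 8, so neither pair differed beyond its spread. Chrdl1 exceeded Grem1 in 8 of 8 libraries, although their ranges overlapped.

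**Figure D1:**
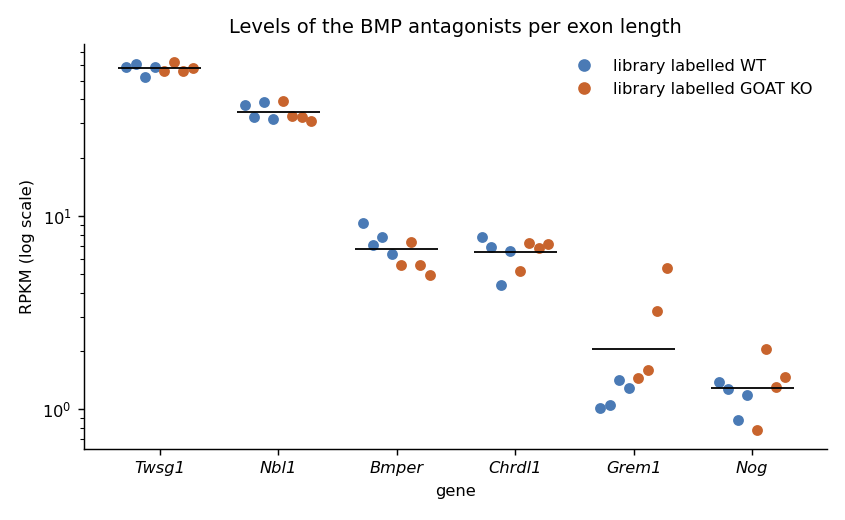
Each point is 1 library, with the level per exon length of each gene in RPKM on a log axis and the mean of the 8 libraries as a line. Twsg1 and Nbl1 stand apart at means of 57.8 and 34.4 RPKM, and the points of Grem1 spread furthest, from 1.02 to 5.37 RPKM.

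Within each library, Twsg1 took between 49.7% and 55.5% of the summed RPKM of the 6 genes and Nbl1 between 28.8% and 36.6%. Grem1 took 0.878% to 1.34% in the libraries labelled WT, and 1.35%, 1.41%, 3.07% and 4.98% in GOAT KO 1139, 1140, 1141 and 1146. The sum itself stayed between 105 and 116 RPKM. Among the 15794 genes tested that had a length, 95.7% lay below Twsg1, 90.9% below Nbl1, 50.1% below Bmper, 49.2% below Chrdl1, 26.5% below Grem1 and 20.3% below Nog. In a ranking of the 20 secreted antagonists and modulators that passed the filter, Twsg1 was number 3, after the protease gene Htra1 at 288 RPKM and the follistatin gene Fst at 78.5 RPKM. Nbl1 was number 6, Bmper 9, Chrdl1 10, Grem1 14 and Nog 15. These ranks rest on the mean of all 8 libraries. Within WT, Grem1 at 1.19 ± 0.193 RPKM (SD, n = 4) was number 14, beside Nog at 1.18 ± 0.221 RPKM (SD, n = 4). Within GOAT KO, Grem1 at 2.91 ± 1.82 RPKM (SD, n = 4) was number 11, Chrdl1 was 9 and Bmper 10, and Nog stayed at 15.

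Of the 6 genes, 1 was called between the groups, Grem1, where a call means an unadjusted p under 0.05 in edgeR's quasi-likelihood test and an absolute log2 fold change over 0.5. Over all genes tested, 1.67% were called, 0.958% as higher and 0.717% as lower in GOAT KO. After Benjamini-Hochberg adjustment none of the 6 stayed under 0.05, and 0.0241% of all genes did. Grem1 was also the only one of the 6 whose groups did not overlap, a pattern shown by 2.92% of all genes, and by 1.64% in the direction of higher GOAT KO values. With the 6 libraries 2.39% of all genes were called, and Grem1 was again the only one of the set. Since the set was drawn up with this contrast known, its count is not read against these shares.

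**Figure D2:**
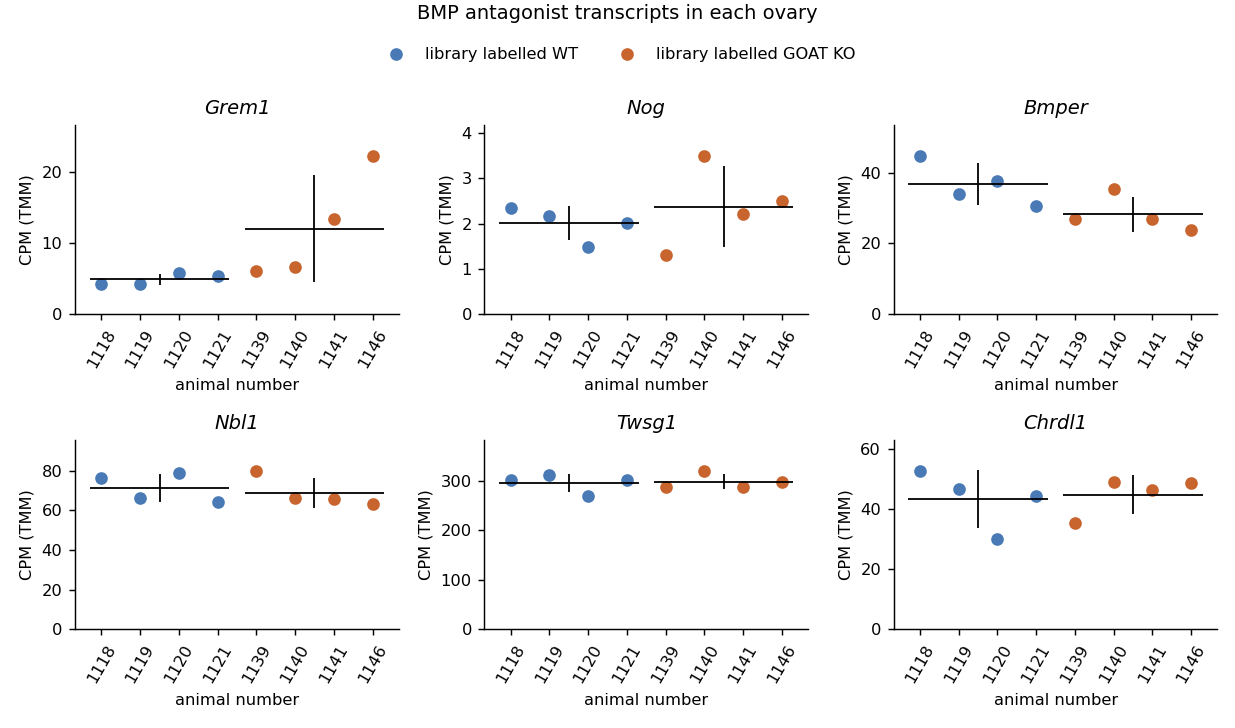
TMM-normalised CPM of the 6 genes in each library, by animal number, with the group mean as a horizontal line and ± 1 SD as a vertical line. The 4 GOAT KO points of Grem1 lie between 6.04 and 22.3 CPM, above the 4 WT points at 4.21 to 5.87 CPM, and the groups of each of the other 5 genes overlap.

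Grem1 (ENSMUSG00000074934.3) occupies chromosome 2 from 113746164 to 113758646 on the minus strand of GRCm38, with 2 exons and 1 annotated transcript. Grem1 is made by granulosa cells and is known to bind BMP2, BMP4 and BMP7. The 250 bases before its start are shown because it is the member that was called, with capitals for matches to a set of 6 short motifs.

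Grem1 upstream (chr2:113758649-113758898, minus strand, RefSeq, GRCm38.p6): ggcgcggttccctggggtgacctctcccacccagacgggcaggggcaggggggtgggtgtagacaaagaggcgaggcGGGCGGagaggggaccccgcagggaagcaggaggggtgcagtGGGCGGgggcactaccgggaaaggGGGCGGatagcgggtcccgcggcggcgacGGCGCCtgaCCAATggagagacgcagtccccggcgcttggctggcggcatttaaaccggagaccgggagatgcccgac

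The motifs were searched on both strands in the 250 bases upstream of 32851 promoter entries. The GC box GGGCGG was found at 3 places for Grem1, 173, 131 and 107 bases before the start, and 32.7% of all promoter entries hold it. CCAAT was found 69 bases before the start and is held by 33.8% of entries, and GGCGCC 78 bases before it, as in 9.59% of entries. The TATA box TATAAA, held by 12.4% of entries, was not among these letters. Neither was AAGGTCA, a site of monomeric nuclear receptors held by 4.08% of entries, nor the cAMP response element TGACGTCA, held by 1.55%. Entries were found for 4 of the 6 genes. The GC content of the 250 bases was 72.0% for Grem1, 71.6% for Bmper, 77.6% for Nbl1 and 64.4% for Twsg1, beside a median of 52.4% over all entries.

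The libraries labelled WT held 68, 78, 107 and 98 reads of Grem1 and those labelled GOAT KO 101, 108, 261 and 383. Scaled to library size, these were 4.21, 4.33, 5.87 and 5.34 CPM in the libraries WT 1118, 1119, 1120 and 1121. In GOAT KO 1139, 1140, 1141 and 1146 they were 6.04, 6.60, 13.4 and 22.3 CPM. All 4 values of GOAT KO lay above all 4 of WT, but GOAT KO 1139 and 1140 lay close to the WT range and 1141 and 1146 well above it. The means were 4.94 ± 0.802 CPM (SD, n = 4) for WT animals and 12.1 ± 7.56 CPM (SD, n = 4) for GOAT KO animals, a log2 fold change of 1.29 (SE 0.37), or 2.44-fold. Without GOAT KO 1146 the log2 fold change was 0.82 and with the 6 libraries 1.60 (SE 0.35).

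The coefficient of variation of Grem1 was 62.7% in GOAT KO and 16.2% in WT, beside a counting error of 8.15% at its mean depth of 150.5 reads. Over all genes tested the median coefficient of variation was 8.48% in GOAT KO and 11.1% in WT.

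The summed markers of granulosa cells of growing follicles overlapped between the groups, although all 6 had a log2 fold change above 0 (median 0.39). Their sum was 1101, 1487, 2113 and 1436 CPM in WT 1118, 1119, 1120 and 1121 and 2371, 1745, 2032 and 2103 CPM in GOAT KO 1139, 1140, 1141 and 1146. All 6 markers of the list had reads in all 8 libraries, and no marker of any of the 11 lists was at 0 throughout. The list of these 6 was drawn up with earlier results of these libraries known, so its directions and calls are a description. One of the 6 was called (1.67% of all genes were), Inhba, which encodes the beta A subunit of inhibin and activin, at 98.4 ± 57.3 CPM (SD, n = 4) for WT animals and 190 ± 60.9 CPM (SD, n = 4) for GOAT KO animals. The call of Inhba was lost without WT 1118, without WT 1119, without WT 1121 and without GOAT KO 1146. With the 6 libraries, where 2.39% of all genes were called, 4 of the list were (Cyp19a1, Inhba, Inhbb and Nppc), and none of the list had an adjusted p under 0.05 in either set. Nppc, which encodes the C-type natriuretic peptide, did not overlap between the groups, with 11.8 to 17.2 CPM in WT and 19.2 to 24.1 CPM in the other libraries. Its log2 fold change of 0.49 (SE 0.12) was short of a call with all 8 libraries and past it without WT 1119, WT 1120, WT 1121, GOAT KO 1140 or GOAT KO 1146. WT 1120 and GOAT KO 1139 held the highest sums of this list and 5.87 and 6.04 CPM of Grem1, while GOAT KO 1146, with 2103 CPM of the markers, held 22.3 CPM of Grem1. The summed leukocyte markers were 75.0 to 99.1 CPM over the WT libraries and 55.6 to 76.2 CPM over the others, lowest in GOAT KO 1146. All 4 leukocyte markers tested had a log2 fold change below 0. Lyz2, the lysozyme gene of myeloid cells, was called at -0.52 (SE 0.13), also with the 6 libraries, but not without WT 1118, WT 1121 or GOAT KO 1146. The groups of Lyz2 and of the macrophage gene Adgre1 (-0.36, SE 0.11) did not overlap, a pattern shown by 2.92% of all genes. Those of Ptprc (-0.25, SE 0.23) and Csf1r (-0.05, SE 0.17), the rest of the leukocyte markers tested, overlapped. Lyz2 held most of the leukocyte sum, at 31.4 to 64.5 CPM over the 8 libraries, so the lower sum rests largely on this gene. The summed stromal fibroblast markers were 2353 to 2731 CPM over the WT libraries and 2708 to 3169 CPM over the others. Of these 7 markers, 6 had a log2 fold change above 0 and 0 were called. All 5 adipose tissue markers tested were called as higher in GOAT KO, but 0 without GOAT KO 1139. The sums of all 11 lists overlapped between the groups. The part of any of these cell types in the difference in Grem1 was not tested. In RNA of a whole ovary, more cells of a type and more RNA per cell cannot be told apart.

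The genes whose log2(CPM + 1) followed Grem1 most closely over the 8 libraries, among 15459 with a mean of at least 1 CPM, were Slc6a4 (Pearson's r = 0.98, n = 8), Fshr (r = 0.96, n = 8) and the predicted gene Gm10762 (r = 0.95, n = 8). Slc6a4 encodes the serotonin transporter and Fshr the receptor for follicle-stimulating hormone on granulosa cells. Levels were low for Slc6a4, at 2.17 to 3.25 CPM, and for Gm10762, at 3.72 to 5.93 CPM. Fshr stood at 33.0, 35.6, 42.8 and 32.7 CPM in the 4 WT libraries and at 37.0, 42.5, 55.8 and 64.3 CPM in GOAT KO 1139, 1140, 1141 and 1146. The groups overlapped for Fshr, and its 2 highest values fell in the 2 libraries that also held the most Grem1. Since Fshr was picked here for its likeness to Grem1, this match and the calls of Fshr are no separate evidence. Fshr was not called with all 8 libraries (log2 fold change 0.47), but was with the 6 libraries (0.68) and without WT 1120, GOAT KO 1139 or GOAT KO 1140 alone. Of all genes, 1.67% were called with all 8 libraries and 2.39% with the 6 libraries. Each coefficient rests on 8 points from the same 8 libraries, and the 2 highest points of both genes are GOAT KO libraries.

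Nbl1 (ENSMUSG00000041120.6), the founding member of the DAN family, lies on chromosome 4 from 139082284 to 139092993 on the minus strand. Its level was 76.3, 66.1, 78.6 and 64.1 CPM in the libraries labelled WT and 79.8, 66.3, 65.7 and 63.1 CPM in those labelled GOAT KO. The highest 2 values were those of GOAT KO 1139 and WT 1120, 1 from each group, and the other 6 libraries lay between 63.1 and 76.3 CPM. The group means were 71.3 ± 7.23 CPM (SD, n = 4) against 68.7 ± 7.49 CPM (SD, n = 4), and the log2 fold change was -0.05 (SE 0.09). On its part of the chromosome, between 100 and 150 Mb, 28 of 553 genes tested were called, or 5.06%, beside 1.67% of all genes, and this difference was not tested. Neither Nbl1 nor the 4 tested genes nearest to it, Minos1, Tmco4, Capzb and Otud3, were among them, with log2 fold changes between -0.09 and 0.16.

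Nog (ENSMUSG00000048616.4) is a single exon on chromosome 11 from 89300638 to 89302332 on the minus strand. It was the shallowest of the 6, with 38, 39, 27 and 37 reads in WT and 22, 57, 43 and 43 in GOAT KO. These gave 2.35, 2.17, 1.48 and 2.02 CPM for the WT animals. The GOAT KO animals had 1.32, 3.48, 2.20 and 2.50 CPM. GOAT KO held both the lowest and the highest library. The means were 2.01 ± 0.375 CPM (SD, n = 4) against 2.37 ± 0.893 CPM (SD, n = 4), and the log2 fold change was 0.24 (SE 0.27). Counting error alone was 16.2% at its mean of 38.2 reads, beside a coefficient of variation of 18.7% in WT and 37.6% in GOAT KO. Without GOAT KO 1140 the log2 fold change was 0.0081.

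Chrdl1 (ENSMUSG00000031283.16), which encodes chordin-like 1, lies on the X chromosome from 143285674 to 143394262 on the minus strand. It stood at 52.5, 46.5, 29.8 and 44.3 CPM in the libraries WT 1118, 1119, 1120 and 1121. In GOAT KO 1139, 1140, 1141 and 1146 it stood at 35.1, 48.9, 46.2 and 48.5 CPM. WT 1120 and GOAT KO 1139 were low and the other 6 libraries lay between 44.3 and 52.5 CPM. The group means, 43.3 ± 9.62 CPM (SD, n = 4) against 44.7 ± 6.48 CPM (SD, n = 4), differed by 0.05 on the log2 scale (SE 0.16), and the sign turned to -0.10 without WT 1120. With the 6 libraries the means were 47.8 ± 4.22 CPM (SD, n = 3) against 47.9 ± 1.47 CPM (SD, n = 3).

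WT 1120 and GOAT KO 1139 stood together for other genes of the set as well, across the genotypes. They held the lowest 2 values of Nog and of Chrdl1 and the highest 2 values of Nbl1. The type II receptor gene Bmpr2 was lowest in the same libraries, at 615 and 657 CPM against 836 to 997 CPM in the other 6, and the type I receptor gene Bmpr1b at 268 and 249 CPM against 332 to 363 CPM. Bmp2 stood at 26.8 and 38.8 CPM there and at 51.7 to 69.4 CPM in the other 6, and this gene was singled out after its values were seen. Over the 8 libraries Chrdl1 had r = 0.80 with Nog, r = 0.79 with Twsg1 and r = -0.63 with Nbl1 (Pearson's r of log2(CPM + 1), n = 8). Aromatase, the product of Cyp19a1, had its highest transcript levels in the same 2 libraries, 65.0 CPM in the former and 45.2 CPM in the latter, against 5.06 to 31.6 CPM in the other 6.

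Which acceptor site the reads of Chrdl1 used was listed differently between libraries. The 2 forms of an internal coding exon differ by 3 bases at its start, and they are shown across the junction, with 30 bases on each side and the additional bases in capitals (GENCODE transcripts, GRCm38, exon start at chrX:143328064 for the shorter and chrX:143328067 for the longer form, minus strand).
Chrdl1-201: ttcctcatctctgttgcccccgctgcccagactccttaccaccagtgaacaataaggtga
Chrdl1-205: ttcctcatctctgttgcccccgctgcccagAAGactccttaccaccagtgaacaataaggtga
The shorter form was listed with 9, 7, 12 and 12 reads in WT 1119, WT 1120, WT 1121 and GOAT KO 1146. The longer was listed with 7 and 10 reads in GOAT KO 1139 and GOAT KO 1141. No library listed both, and WT 1118 and GOAT KO 1140 listed neither. A junction that a library does not list is not shown to be unused, since a Twsg1 junction with 76 to 145 reads in 7 libraries was missing from the list of WT 1118. This site therefore did not reach 10 listed reads in every library and its share was not tested.

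Bmper (ENSMUSG00000031963.8) encodes a secreted BMP-binding protein related to fly crossveinless-2, which can hold BMP signals back or promote them. It spans chromosome 9 from 23223076 to 23485200 on the plus strand. The bases before its start are shown because its difference between the groups was the furthest below 0 of the set, and capitals mark its only motif match, a GC box 85 bases before the start.

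Bmper upstream (chr9:23222826-23223075, plus strand, RefSeq, GRCm38.p6): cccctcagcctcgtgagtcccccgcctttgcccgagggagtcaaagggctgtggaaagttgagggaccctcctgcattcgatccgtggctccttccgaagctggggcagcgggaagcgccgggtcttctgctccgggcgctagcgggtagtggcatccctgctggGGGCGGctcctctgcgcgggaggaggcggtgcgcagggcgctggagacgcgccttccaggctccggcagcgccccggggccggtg

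Bmper was read at 44.6, 34.1, 37.7 and 30.7 CPM in WT 1118, 1119, 1120 and 1121 and at 27.0, 35.4, 26.8 and 23.8 CPM in GOAT KO 1139, 1140, 1141 and 1146. GOAT KO 1140 lay within the WT range and the other 3 GOAT KO libraries lay below it, so that the GOAT KO value was the higher in 2 of 16 pairs of libraries. The means were 36.8 ± 5.96 CPM (SD, n = 4) against 28.3 ± 4.98 CPM (SD, n = 4), with a log2 fold change of -0.38 (SE 0.14) that was short of the threshold for a call. Without GOAT KO 1140 it was -0.51 and called. At a log2 threshold of 0.3, which 2.85% of all genes passed, Bmper and Grem1 were both called. The listed splice junctions of Bmper held 83, 87, 77 and 78 reads in the WT libraries and 58, 60, 57 and 36 in the GOAT KO libraries. These sums come from the same libraries and are no separate evidence, and only 4 of the 14 annotated introns with reads were listed in all 8. Over the 8 libraries Bmper had r = -0.77 with Grem1 (Pearson's r, n = 8).

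Twsg1 (ENSMUSG00000024098.6), on chromosome 17 from 65921972 to 65951226 on the minus strand, was the most even of the 6. It stood at 302, 313, 270 and 301 CPM in the WT libraries and, in GOAT KO, at 288, 320, 287 and 298 CPM. WT 1120 was the lowest and the other 7 libraries lay between 287 and 320 CPM. The means were 297 ± 18.4 CPM (SD, n = 4) against 298 ± 15.2 CPM (SD, n = 4), and the log2 fold change was 0.0077 (SE 0.063). Its sign turned without WT 1120 (-0.039), without GOAT KO 1140 (-0.028), with the 6 libraries (-0.019) and without the filter on low counts (-0.00015).

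Which form of Twsg1 was read was not used to choose the genes. A coding exon of 100 bases (chr17:65937801-65937900, minus strand) can be skipped, and it is shown because both sites with enough reads for a test flank it.
Twsg1-201 skipped exon (GENCODE transcript, GRCm38): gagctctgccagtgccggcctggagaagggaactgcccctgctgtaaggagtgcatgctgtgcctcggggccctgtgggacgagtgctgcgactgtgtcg
Reads that skip it were listed in WT 1118, with 1 read, and in WT 1121, with 2 reads. They made up 3 of 592 reads at the acceptor of the exon that follows and 3 of 408 at the donor of the exon that precedes. The mean share was 0.868% in WT and 0% in GOAT KO at the first, and 1.96% and 0% at the second, counting a skipping junction that a library does not list as 0. A two-sided exact permutation test gave p = 0.429 at either site (adjusted p = 0.429 over the 2 sites), which is the smallest p that shares above 0 in only 2 libraries allow, so the test bears on no difference. The 3 skipping reads were too few to show a difference at this depth.

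**Figure D3:**
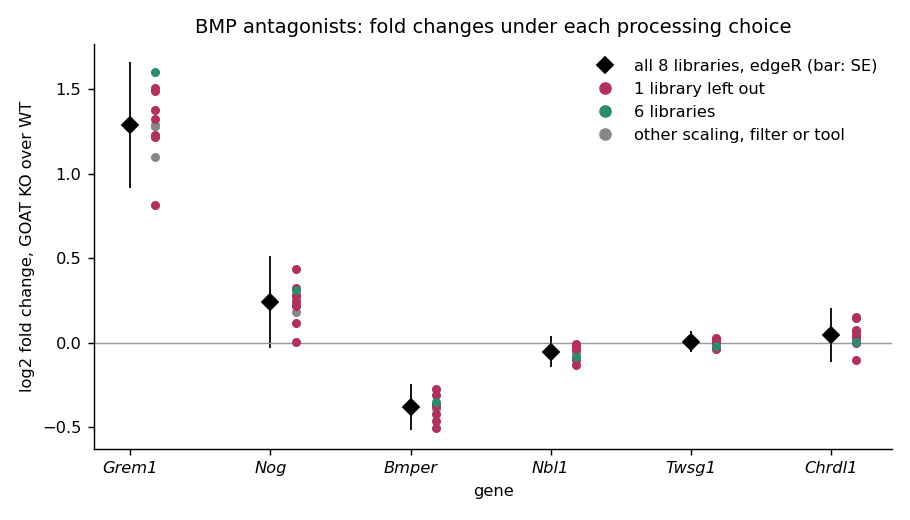
The log2 fold change of each gene, GOAT KO over WT, with all 8 libraries (diamond, bar ± 1 SE), with 1 library left out, with the 6 libraries, and with another scaling, filter or tool. Grem1 lies between 0.82 and 1.60 under all choices and Bmper between -0.51 and -0.27, while Twsg1 and Chrdl1 lie on both sides of 0.

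The genes around these antagonists were taken from 5 lists of other antagonists and modulators, ligands, receptors, Smads and target genes. Of 58 genes, 47 passed the filter and 0 were called by edgeR, beside 1.67% of all genes tested. Of the 47, 2 had an unadjusted p under 0.05 in edgeR's quasi-likelihood test, as had 4.62% of all genes tested. DESeq2 and limma-voom also called 0 of each list. The log2 fold changes of the 47 lay between -0.60 and 0.36. Their median was -0.01, beside -0.00035 over all genes tested. The groups overlapped in all 47, while 2.92% of all genes showed no overlap. Counts of 0 among 47 genes lie near these shares and are not read as a result. One gene, Bmp8a, was called when GOAT KO 1139 was left out, and another, Fst, at a log2 threshold of 0.3.

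Among the other antagonists and modulators, 14 of 18 were tested, with a median log2 fold change of 0.05. The 2 genes at an unadjusted p under 0.05 both stand here and were singled out after their values were seen, except that Fst belongs among the most abundant. Fst, whose product follistatin binds activin above all and some BMPs, stood at 288, 379, 249 and 344 CPM in the WT libraries and, in GOAT KO, at 341, 445, 443 and 393 CPM. Its groups overlapped, and its log2 fold change of 0.36 (SE 0.13) had an adjusted p of 0.983 by edgeR's quasi-likelihood test. Fstl1, a follistatin-like gene, averaged 238 CPM in the WT and 277 CPM in the other libraries (n = 4 each), a log2 fold change of 0.22 (SE 0.08). Htra1, which encodes a secreted serine protease, was the most abundant of the list at 803 ± 110 CPM (SD, n = 4) against 854 ± 66.7 CPM (SD, n = 4).

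Of 15 ligand genes, 9 were tested and 0 were called, beside 1.67% of all genes, with a median log2 fold change of -0.07. With so few genes, 0 calls are not read as a result. The oocyte ligands were the most abundant. Gdf9 stood at 305 ± 28.5 CPM (SD, n = 4) for WT animals and 310 ± 20.9 CPM (SD, n = 4) for GOAT KO animals. Bmp15 stood at 152 ± 22.1 CPM (SD, n = 4) against 152 ± 6.25 CPM (SD, n = 4). The log2 fold changes were 0.03 (SE 0.08) for Gdf9 and 0.00067 (SE 0.09) for Bmp15, smaller than the spread between libraries.

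All 10 receptor and co-receptor genes were tested and 0 were called, beside 1.67% of all genes, with a median log2 fold change of -0.0080. Bmpr2, which encodes the type II BMP receptor, had 880 ± 178 CPM (SD, n = 4) against 825 ± 121 CPM (SD, n = 4). Bmpr1b, a type I receptor gene, had 329 ± 42.5 CPM (SD, n = 4) against 327 ± 52.7 CPM (SD, n = 4). The 6 Smad genes gave 0 calls, beside the same share of all genes, and a median of -0.05. Smad5 stood at 221 ± 13.2 and 231 ± 2.94 CPM (SD, n = 4 each) and the common partner Smad4 at 168 ± 8.76 and 168 ± 4.74 CPM (SD, n = 4 each).

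Transcripts that BMP signalling is known to raise showed no call either, beside 1.67% of all genes called. With so few genes this is not read as a result. Of 11 target genes, 10 were tested and 8 had a log2 fold change below 0, with a median of -0.07 and a range of -0.22 to 0.06. Smad6 and Smad7 stand both here and in the list of Smads, and Smad6 at -0.22 is the lowest of both, so the 2 lists are not independent. Id3 stood at 149 ± 21.8 CPM (SD, n = 4) for WT animals and 154 ± 9.23 CPM (SD, n = 4) for GOAT KO animals. Id2 stood at 63.7 ± 12.3 CPM (SD, n = 4) against 57.7 ± 3.69 CPM (SD, n = 4), a log2 fold change of -0.14 (SE 0.12). Both encode inhibitors of DNA binding by basic helix-loop-helix factors. With the 6 libraries the median of the target genes was -0.03.

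**Figure D4:**
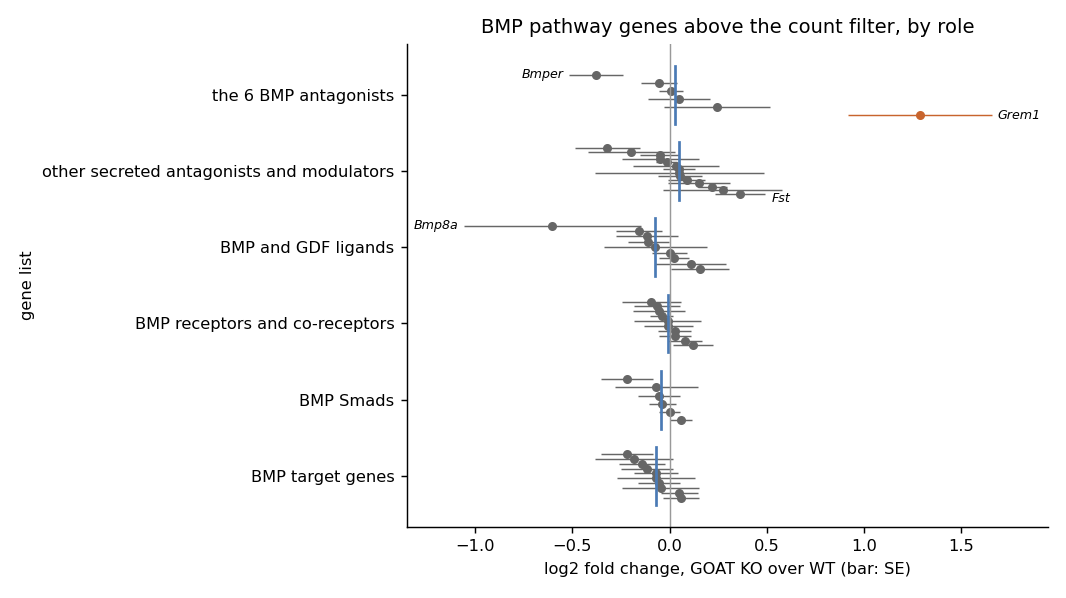
The log2 fold change of each gene above the count filter, GOAT KO over WT, as a point with ± 1 SE, by list, with the median of each list as a blue line. Grem1 at 1.29 is the only called gene (orange), and the 47 genes of the other 5 lists lie between -0.60 and 0.36.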

How the data were processed

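Total RNA of 8 ovaries was sequenced as single reads of 50 bases. The authors aligned them to mm10 (GRCm38) with TopHat 2.0.14, assembled transcripts with StringTie 1.0.4, and deposited whole-number counts per gene symbol and counts of reads per splice junction. The counting tool and the use of strand are not given in the sources used here. Assembled transcripts and feature summaries were not used.

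The analysis used edgeR 4.0.16 under R 4.3.3. The filter was filterByExpr (10 counts at the median depth in 4 libraries and 15 in all). Counts were scaled by TMM and compared by the quasi-likelihood test without covariates. The SE is the log2 fold change over the square root of F. CPM are TMM-normalised, and RPKM divide them by the exon length of GENCODE M21, a later release than the authors' guide. No pair of libraries within a group agreed within sampling noise (chi-square per gene 4.24 to 27.4), so each is 1 replicate. The fits and the permutation test were tested on simulated data. Depth limits genes of few reads, such as Mboat4 and Nog.

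The genes named by rule are the 6 antagonists, Mboat4, the called genes and the 2 most abundant of each pathway list, and the 3 genes most like each antagonist. Bmp2, Bmp8a, Fstl1, the markers and the neighbours of Nbl1 are named outside it, after their values were seen. The members, lists and tests were chosen with earlier results of these data known. Alternatives were RLE scaling, library totals alone, no filter, DESeq2 1.42.0, limma-voom 3.58.1, a log2 threshold of 0.3, leaving out each library, leaving out WT 1120 and GOAT KO 1139 together, and 5 in place of 10 junction reads.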

Additional observations from a re-analysis of the deposited data

Results flagged for a closer look

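In a group of 4 libraries, the gap of the highest or lowest value to its neighbour, as a share of the whole range, was compared with Dixon's critical value at the 0.05 level. Of 54 such checks, over the members, the most abundant pathway genes and the marker sums, 5 passed it, and chance alone passes about 1 in 20. Bmp15 was highest in WT 1118, at 185 CPM. Bmpr1b was lowest in GOAT KO 1139, at 249 CPM, and Bmpr2 in WT 1120, at 615 CPM. The summed oviduct markers were highest in WT 1121, at 18.4 CPM. The summed adipose tissue markers were highest in GOAT KO 1139, at 614 CPM. None of the 6 antagonists passed in either group.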

How the results depend on the processing

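The number of genes called was 278 with all 8 libraries, 691 without the filter on low counts and 473 at a log2 threshold of 0.3. It ran from 231 to 437 when 1 library was left out, the latter without WT 1120. Calls after adjustment numbered 4, and were 7 without the filter, 13 with DESeq2, 20 with the 6 libraries and 3 to 14 with 1 library left out, the last without GOAT KO 1139. The other settings stayed within 1.5 times these counts. The log2 fold change of Grem1 lay between 0.82 and 1.60 over its 14 alternatives, a description of the values that chose it. With 1 library left out, the log2 fold change of Bmper ran from -0.51 (called, without GOAT KO 1140) to -0.27, of Twsg1 from -0.039 to 0.030 and of Chrdl1 from -0.10 to 0.15. Twsg1 also turned sign without the filter (-0.00015) and with the 6 libraries (-0.019). The causes were not tested. Nog and Nbl1 kept their sign throughout. The Twsg1 exon share could not turn, since no GOAT KO library listed a skipping read, nor pass the threshold, since at most 2 libraries had a share above 0. No analysis paired by litter was possible because the labels do not give the litter of an animal, and litter was not modelled.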

Other observations

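The genes most like the other antagonists over the 8 libraries, by Pearson's r of log2(CPM + 1), are given as values only (n = 8 each). They were Pcdh7 (r = 0.99), Gpbp1l1 (r = 0.96) and Zfp949 (r = 0.96) for Nog, and Btg4 (r = 0.97), Zfp735 (r = 0.96) and F2r (r = 0.96) for Bmper. For Nbl1 they were Zfp142 (r = 0.99), Tcf7 (r = 0.98) and Kctd11 (r = 0.98). For Twsg1 they were Fam35a (r = 0.99), Ptbp3 (r = 0.97) and Fnbp1l (r = 0.97), and for Chrdl1 Gm19569 (r = 0.99), Prickle1 (r = 0.99) and Pde7b (r = 0.99). None of these 15 genes was called between the groups.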
